A study of Mus musculus with 4 samples.

Results

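The genes of the EGFR family of growth factor receptors and their ligands were examined in mouse lung tumours. Members were taken by gene symbol from the count files, which held all 10 of them among 24391 genes. They comprised 4 receptors (Egfr, Erbb2, Erbb3 and Erbb4) and 6 ligands (Areg, Ereg, Hbegf, Tgfa, Btc and Egf). The series held 4 tumour samples. In the K-Ras group (2 samples) the tumours arose from the K-RasLSL-G12D allele, an oncogenic K-Ras that is expressed once Cre removes a stop cassette. The K-Ras Mll4-/- group (2 samples) carried the same K-RasLSL-G12D allele together with Mll4fl/fl, the conditional allele of the enhancer histone methyltransferase Mll4 (Kmt2d). All tumours were dissociated with collagenase and trypsin, and leukocytes were then depleted by their surface antigen CD45 before RNA extraction. The Cre source, the age and sex of the mice, and whether a sample came from 1 animal or a pool are not given in the sources used here.

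EGFR family receptors sit in the plasma membrane and pair with each other when a ligand binds, which switches on their kinase domains and starts signalling through RAS and PI3K. The ligands are made as membrane-anchored precursors that metalloproteases of the ADAM family cut free. Amphiregulin, epiregulin, HB-EGF, TGF-alpha, betacellulin and EGF all bind EGFR. ERBB2 has no known ligand of its own, ERBB3 binds neuregulins and has little kinase activity, and the neuregulins also bind ERBB4. In the lung, oncogenic K-Ras acts below these receptors, and EGFR family ligands are known targets of RAS signalling.

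Between 26683033 and 36677987 reads were assigned to genes per sample. The number of reads on a member ranged from 0 for Erbb4 to 9999 for Areg, so counting error is small for all members except Erbb4 and Egf. Values below are TMM-normalised CPM, the reads on a gene scaled to one common library size so that samples can be compared. The targeted gene, Kmt2d, was at 367 and 317 CPM in the K-Ras Mll4-/- samples and at 395 and 526 CPM in the K-Ras samples, a log2 fold change of -0.43 (SE 0.21) that did not pass the test (edgeR quasi-likelihood adjusted p = 0.302) and that was -0.10 with offsets for GC content and transcript length. A whole-gene count does not resolve the loss of floxed exons, so the deletion is taken from the labels. The replicates were not repeats of the same counts, with a chi-square per gene of 48.7 between the K-Ras Mll4-/- replicates and 129 between the K-Ras replicates. P-values measure only the spread between these samples, since nothing says that replicates came from separate mice.

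The labelled tissue was checked against marker genes. Alveolar type 2 markers were abundant in every sample (summed level of the 6 genes 14050 to 23930 CPM, with the groups overlapping). General epithelial markers did not overlap: the sum of Epcam, Cdh1, Krt8 and Krt18 was 2759 and 2795 CPM in the K-Ras Mll4-/- samples against 772 and 1277 CPM in the K-Ras samples, and all 4 genes were higher in both K-Ras Mll4-/- samples. The sum of 4 endothelial markers was 2394 and 1868 CPM against 3204 and 3408 CPM, and the sum of 4 fibroblast markers was 467 and 496 CPM against 1435 and 658 CPM. K-Ras replicate 2 stood apart in airway markers, with 726 CPM over 4 ciliated cell genes against 127 CPM in K-Ras replicate 1 and 72.6 and 74.3 CPM in the K-Ras Mll4-/- samples. Its 3 club cell genes summed to 3430 CPM, against 539 to 702 CPM in the other samples, and the values without it are given beside Ereg, Areg, Btc, Tgfa and Erbb3 below. In bulk tissue, fewer cells of a type and less RNA per cell cannot be told apart.

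Among the 6 ligands, Ereg, Areg, Hbegf and Btc were higher in both K-Ras Mll4-/- samples than in both K-Ras samples, by 2.31-fold to 6.38-fold, Tgfa overlapped between the groups, and Egf was lower in both. Among the receptors Erbb3 was higher in both K-Ras Mll4-/- samples by 1.73-fold, Egfr was lower in both by 1.46-fold, and Erbb2 overlapped. Of the 9 members that passed the count filter, 0 were called at an adjusted p under 0.05 (edgeR quasi-likelihood), where 0.0375% of all 16001 tested genes were called higher and 0% lower. At an unadjusted p under 0.05 the count was 3 members higher (Hbegf, Ereg and Areg) and 0 lower, against 11.4% of all genes higher and 10.4% lower. In CPM, 5 of the 9 had both K-Ras Mll4-/- samples above both K-Ras samples and 2 had both below, against 29.9% and 28.5% of all genes. The median log2 fold change was 0.79 over the 9 members and -0.01 over all tested genes. DESeq2 called the same 3 ligands, Hbegf, Ereg and Areg, with 5.23% of genes called higher and 5.18% lower by that tool.

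**Figure D1:**
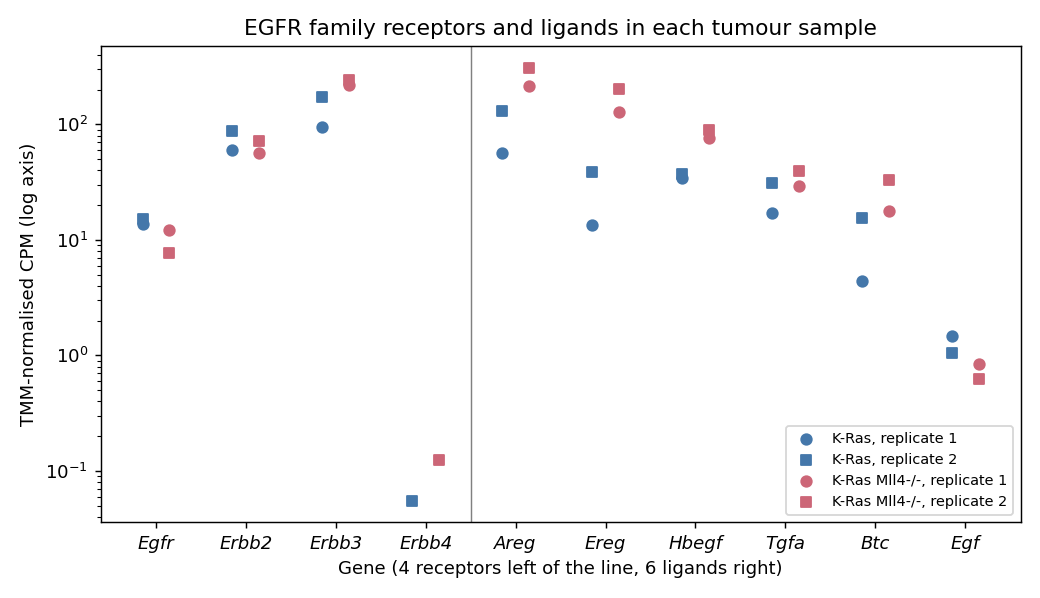
Level of each receptor and ligand in each sample, as TMM-normalised CPM on a log axis, with 1 point per sample (circles, replicate 1, and squares, replicate 2). Samples with 0 reads are not drawn, which leaves out replicate 1 of both groups for Erbb4. The red points lie above the blue points for Erbb3, Areg, Ereg, Hbegf and Btc and below them for Egfr and Egf.

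Ereg encodes epiregulin, a ligand of EGFR and ERBB4 that is made at low levels in most adult tissues. It was at 129 and 202 CPM in the K-Ras Mll4-/- samples (mean 165 ± 51.1 SD, n = 2) and at 13.4 and 38.3 CPM in the K-Ras samples (mean 25.9 ± 17.6 SD, n = 2). The lower K-Ras Mll4-/- sample was thus above the higher K-Ras sample, and the K-Ras samples themselves lay far apart. The log2 fold change was 2.67 (SE 0.58, edgeR unadjusted p = 0.00759, adjusted p = 0.157), the largest of the tested members. DESeq2 gave an adjusted p of 9.22e-06. The value was 2.11 without K-Ras replicate 1 and 3.61 without K-Ras replicate 2. Some exon sequence of Ereg (141 of 4128 bases in GENCODE M21) is shared with the opposite-strand transcript Gm19610, and the strand setting of the counting is not given in the sources used here.

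Areg encodes amphiregulin, a heparin-binding EGFR ligand that epithelium and several leukocyte types release in injury and inflammation. It was at 215.0 and 310.2 CPM in the K-Ras Mll4-/- samples (mean 263 ± 67.4 SD, n = 2) and at 57.0 and 130.2 CPM in the K-Ras samples (mean 93.6 ± 51.8 SD, n = 2). The groups did not overlap. The log2 fold change was 1.49 (SE 0.46, edgeR unadjusted p = 0.0264, adjusted p = 0.192), with a DESeq2 adjusted p of 0.0103. It came to 1.02 without K-Ras replicate 1 and 2.19 without K-Ras replicate 2. Areg had more reads than any other ligand in each sample.

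Btc encodes betacellulin, which activates both EGFR and ERBB4. It was at 17.8 and 32.9 CPM in the K-Ras Mll4-/- samples (mean 25.3 ± 10.6 SD, n = 2) and at 4.45 and 15.5 CPM in the K-Ras samples (mean 9.99 ± 7.83 SD, n = 2). The groups were separated by little, since the higher K-Ras sample was close to the lower K-Ras Mll4-/- sample. The log2 fold change of 1.34 (SE 0.67) did not pass the test (edgeR adjusted p = 0.316; DESeq2 adjusted p = 0.157). It moved to 0.71 without K-Ras replicate 1 and to 2.50 without K-Ras replicate 2.

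Ereg, Areg and Btc lie side by side on chromosome 5, together with Epgn, the gene of the EGFR ligand epigen. In RefSeq's order of protein-coding genes the run reads Epgn, Ereg, Areg, Btc, with chemokine genes and Mthfd2l before it and Parm1 after it. Epgn was barely detected, with 10 and 8 reads in the K-Ras Mll4-/- samples and 4 and 16 reads in the K-Ras samples, and the groups overlapped (log2 fold change 0.10, SE 0.76, edgeR adjusted p = 0.953). For the genes that flank the run, Mthfd2l, a mitochondrial folate enzyme gene, and Parm1, a mucin-like membrane protein gene, the groups overlapped, with log2 fold changes of 0.19 (SE 0.31) and 0.86 (SE 0.94). Among the 7 chemokine genes, log2 fold changes ran from -1.60 (SE 0.79) for Cxcl2, whose groups overlapped, to 0.0082 for Cxcl15. Cxcl5 (-1.41, SE 0.57) and Cxcl3 (-0.79, SE 0.37) were lower in both K-Ras Mll4-/- samples, and the groups overlapped for Ppbp (-0.22), Pf4 (-0.35) and Cxcl1 (-0.48). Beyond Parm1, Rchy1 (0.25, SE 0.14) was higher in both K-Ras Mll4-/- samples, and the groups overlapped for Cdkl2 (0.049, SE 0.37). This stretch held 16 protein-coding genes, the ligand genes included, chosen by position after the members were known. Counts were present for 15 of them, and 0 of these were called (edgeR quasi-likelihood). At an unadjusted p under 0.05 the count was 2, Ereg and Areg, where 11.4% of all genes were higher and 10.4% lower, and DESeq2 called those same 2.

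**Figure D2:**
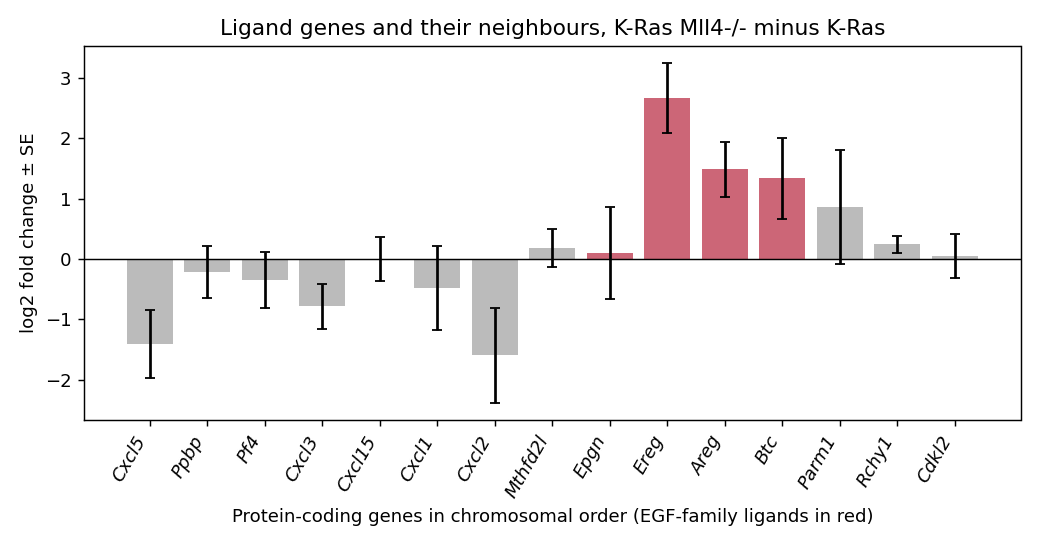
log2 fold change (K-Ras Mll4-/- minus K-Ras, bars) with its SE for protein-coding genes in their chromosomal order, with EGF-family ligands in red. Ereg, Areg and Btc stand at 2.67, 1.49 and 1.34, while Epgn beside them is at 0.10 and the genes beyond have bars between -1.60 and 0.86.

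The start-site regions of these neighbouring ligand genes are shown to set a ligand gene with high counts (Areg) beside one with moderate counts (Btc) and one close to 0 (Epgn). The windows run from 250 bases before to 50 bases after the start site and come from RefSeq (GRCm38.p6), where 7 of the 10 members were matched by symbol. Ereg, Erbb3 and Hbegf are not among those 7. Capitals mark matches on either strand to the cyclic AMP response element TGACGTCA, the TATA box TATAAA and the GC box GGGCGG, and no match to the AP-1 motif TGANTCA was found in them. The files' own build is mm9, so these coordinates serve only to identify the windows.
Areg, chr5:91139349-91139648, plus strand: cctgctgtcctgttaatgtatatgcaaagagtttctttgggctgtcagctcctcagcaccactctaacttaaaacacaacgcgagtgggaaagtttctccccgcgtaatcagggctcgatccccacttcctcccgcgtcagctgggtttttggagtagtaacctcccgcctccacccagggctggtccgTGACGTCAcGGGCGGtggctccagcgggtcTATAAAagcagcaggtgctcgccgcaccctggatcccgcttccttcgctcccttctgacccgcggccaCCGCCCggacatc
Btc, chr5:91402945-91403244, minus strand: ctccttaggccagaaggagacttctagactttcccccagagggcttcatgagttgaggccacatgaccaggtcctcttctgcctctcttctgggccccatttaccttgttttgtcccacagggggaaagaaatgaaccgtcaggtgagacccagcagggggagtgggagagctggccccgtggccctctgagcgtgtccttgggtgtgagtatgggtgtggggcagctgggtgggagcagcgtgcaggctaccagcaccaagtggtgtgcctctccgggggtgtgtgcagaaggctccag
Epgn, chr5:91027267-91027566, plus strand: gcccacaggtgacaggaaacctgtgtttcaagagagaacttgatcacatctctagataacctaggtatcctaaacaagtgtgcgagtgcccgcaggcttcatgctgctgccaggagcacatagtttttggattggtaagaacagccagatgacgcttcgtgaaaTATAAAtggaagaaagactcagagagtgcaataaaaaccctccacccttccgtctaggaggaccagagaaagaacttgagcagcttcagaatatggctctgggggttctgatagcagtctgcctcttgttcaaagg

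The Areg window held a complete cyclic AMP response element that began 61 bases before the start site, followed by a GC box at 52 bases and a TATA box at 31 bases, with another GC box match after the start site. Of 32851 windows of this length, 1.79% held the response element, 13.6% the TATA box, 35.7% the GC box and 7.81% the AP-1 motif. Btc matched none of these motifs, and Epgn matched the TATA box alone, 86 bases before the start site. A match of letters is a description of the sequence only.

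Hbegf encodes heparin-binding EGF-like growth factor, a ligand of EGFR and ERBB4 that is induced early by RAS and stress signals. It was at 76.6 and 88.9 CPM in the K-Ras Mll4-/- samples (mean 82.8 ± 8.69 SD, n = 2) and at 34.5 and 37.1 CPM in the K-Ras samples (mean 35.8 ± 1.80 SD, n = 2). The samples of each group lay close together. The log2 fold change was 1.21 (SE 0.14), with the smallest p-value of the members (edgeR unadjusted p = 0.000495, adjusted p = 0.119), at rank 66 among 16001 genes. DESeq2 gave an adjusted p of 3.99e-06. The value stayed between 1.09 and 1.32 when each sample was left out in turn, a narrower range than for the 3 clustered ligands. Over the 4 samples, the genes whose log2 CPM pattern lay closest to that of Hbegf were Ppa1, Pbk and Slc16a3, at Euclidean distances of 0.0387, 0.0403 and 0.0597. Such likeness is not selective here, since 330 genes had a correlation above 0.99 with Hbegf over these 4 samples.

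Tgfa encodes transforming growth factor alpha, a close relative of EGF. It was at 29.2 and 39.3 CPM in the K-Ras Mll4-/- samples and at 17.1 and 31.2 CPM in the K-Ras samples. The groups overlapped, and the log2 fold change was 0.50 (SE 0.35, edgeR adjusted p = 0.442). Without K-Ras replicate 1 it was 0.14, and without K-Ras replicate 2 it was 0.99. Egf, the founding member of the ligand family, had only 22 and 20 reads in the K-Ras Mll4-/- samples and 45 and 38 reads in the K-Ras samples. Its level was 0.838 and 0.621 CPM against 1.47 and 1.05 CPM, and the log2 fold change of -0.79 had an SE of 0.44 and did not pass the test (edgeR adjusted p = 0.348). Of the 11275 exon bases of Egf, the opposite-strand transcripts Gm42697 and 6330410L21Rik share 607 and 500. For Tgfa, the opposite-strand transcript Gm43917 shares 118 of 6490 exon bases. Reads in such stretches cannot be told apart without a known strand setting.

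Erbb3, the neuregulin receptor, had the most reads of the receptors. It was at 218 and 242 CPM in the K-Ras Mll4-/- samples (mean 230.2 ± 16.7 SD, n = 2) and at 95.1 and 171 CPM in the K-Ras samples (mean 133 ± 53.8 SD, n = 2). The groups did not overlap, and the K-Ras samples were the more widely spread. The log2 fold change was 0.79 (SE 0.31, edgeR adjusted p = 0.244; DESeq2 adjusted p = 0.120). It was 1.26 without K-Ras replicate 2 and 0.43 without K-Ras replicate 1.

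Erbb2, the preferred partner of the other receptors, was at 56.6 and 72.4 CPM in the K-Ras Mll4-/- samples and at 60.4 and 87.7 CPM in the K-Ras samples. Both samples numbered 1 lay below both samples numbered 2, whatever their group. The log2 fold change was -0.20 (SE 0.24, edgeR adjusted p = 0.658), and its sign turned to 0.081 without K-Ras replicate 2. Egfr itself was at 12.1 and 7.73 CPM in the K-Ras Mll4-/- samples (mean 9.92 ± 3.10 SD, n = 2) and at 13.7 and 15.3 CPM in the K-Ras samples (mean 14.5 ± 1.16 SD, n = 2). Its log2 fold change of -0.55 (SE 0.28) did not pass the test (edgeR adjusted p = 0.316), and it was -0.27 without K-Ras Mll4-/- replicate 2 and -0.90 without K-Ras Mll4-/- replicate 1. Erbb4 had 0 and 4 reads in the K-Ras Mll4-/- samples and 0 and 2 reads in the K-Ras samples. It was left out by the count filter, and no fold is given because its reads are at or near the floor of 3 reads per sample, which corresponds to between 0.0830 and 0.114 CPM.

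**Figure D3:**
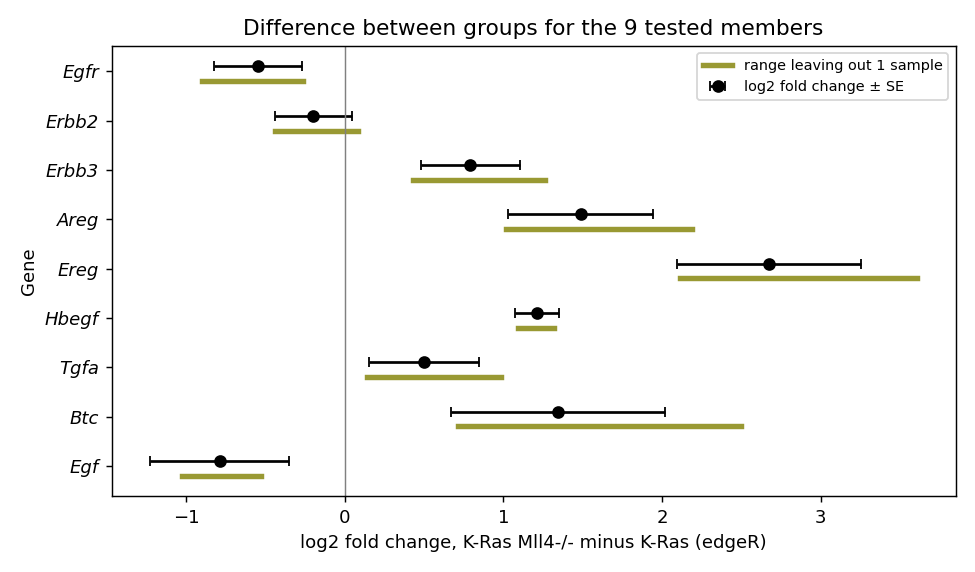
log2 fold change (K-Ras Mll4-/- minus K-Ras) with its SE for the 9 tested members, and beneath each point a bar from the lowest to the highest value when 1 sample was left out. Hbegf has the shortest bar among the ligands, from 1.09 to 1.32, and Btc the longest, from 0.71 to 2.50.

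Levels of different genes were compared as CPM per kilobase of the longest GENCODE M21 transcript. In K-Ras tumours Areg led at 77.1 ± 42.6 CPM per kilobase (SD, n = 2), followed by Erbb3 at 22.1 ± 8.94, Erbb2 at 14.8 ± 3.85 and Hbegf at 12.4 ± 0.624. Erbb3 and Erbb2 overlapped between samples, as did Erbb2 and Hbegf. Within each K-Ras sample Erbb3 was above Erbb2, and Erbb2 was above Hbegf (12.06 against 11.94 and 17.5 against 12.82 CPM per kilobase). Ereg at 6.27 ± 4.26, Tgfa at 5.34 ± 2.20 and Btc at 2.48 ± 1.95 CPM per kilobase came next, each overlapping its neighbour in the order. Egfr, at 1.42 ± 0.113 CPM per kilobase, overlapped Btc, and Egf and Erbb4 were lowest at 0.265 and 0.00230. In K-Ras Mll4-/- tumours Areg again led at 216 ± 55.5 CPM per kilobase, Ereg stood at 40.05 ± 12.4 and overlapped Erbb3 at 38.3 ± 2.78, and Hbegf at 28.6 ± 3.01 was above Erbb2 at 12.9 ± 2.22. Tgfa at 7.56 ± 1.58 and Btc at 6.29 ± 2.64 overlapped between samples, although Tgfa was above Btc within each sample. Egfr at 0.972 ± 0.304 was far below both. By group means Ereg thus moved from rank 5 to rank 2, while the least abundant genes, Egfr, Egf and Erbb4, held the same ranks. These ranks did not hold in every sample. In K-Ras replicate 1 Egfr was above Btc (1.34 against 1.10 CPM per kilobase), and in K-Ras Mll4-/- replicate 1 Ereg was below Erbb3 (31.3 against 36.3). With exon bases of all transcripts merged as the length, the order differed only in that Btc stood above Tgfa in K-Ras Mll4-/- tumours. The authors' own gene models may have other lengths.

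Summed over the 6 ligands, the level was 469 and 673 CPM in the K-Ras Mll4-/- samples and 128 and 253 CPM in the K-Ras samples. Summed over the 4 receptors it was 287 and 322 CPM against 169 and 274 CPM. Neither sum overlapped between the groups, and Areg and Erbb3 weigh most in them. Within each group the sample numbered 2 was above the sample numbered 1 for 7 of the 9 tested members, and Egf was lower in the sample numbered 2 of both groups. For Btc the log2 difference between the K-Ras replicates, 1.79, exceeded that between the groups, 1.34. The same held in size for Erbb3 (0.85 against 0.79), Tgfa (0.86 against 0.50) and Erbb2 (0.54 against -0.20). For Egfr the K-Ras Mll4-/- replicates differed by -0.64, more than the group difference of -0.55. For Hbegf the difference between the K-Ras replicates was 0.10, far under the group difference of 1.21.

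The epithelial markers differed between the groups in the same direction as Ereg, Areg, Hbegf, Btc and Erbb3, with a mean log2 difference of 1.39 over the 4 genes, and their part in these results was not tested. Levels of the members were therefore also expressed relative to these markers within each sample, a comparison added after seeing the data and made without a test. Relative to the mean log2 CPM of the 4 markers, Ereg was still higher in both K-Ras Mll4-/- samples, by 1.44 on the log2 scale. On that scale the groups overlapped for Areg (difference 0.19), Btc (0.14) and Hbegf (-0.18), and Egfr, Erbb2, Erbb3, Tgfa and Egf were lower in both K-Ras Mll4-/- samples. A gene with equal CPM in both groups comes out near -1.39 on it, and near -0.87 relative to Epcam. The share of all genes that are lower in both on these scales is not given here, so the direction alone does not set these members apart. Relative to Epcam alone, which had a smaller log2 difference of 0.87, Ereg (1.96), Areg (0.71) and Hbegf (0.34) were higher in both K-Ras Mll4-/- samples, Egfr (-1.45), Erbb2 (-1.06), Tgfa (-0.32) and Egf (-1.61) were lower in both, and Btc (0.66) and Erbb3 (-0.020) overlapped. The keratin genes Krt8 and Krt18 differed more than Epcam, by 1.41 and 2.07 on the log2 scale, so the choice of marker sets these values. Markers of single epithelial cell types were not used as a reference. Their median log2 fold changes were -0.14 (alveolar type 2), 0.46 (alveolar type 1), -1.33 (club) and -2.36 (ciliated). The alveolar lists were mixed. Of 6 alveolar type 2 genes, 1 was higher in both K-Ras Mll4-/- samples (Sftpb, 1.03) and 2 were lower in both. Of 5 alveolar type 1 genes, 2 were higher in both (Aqp5, 1.14, and Rtkn2, 0.96) and 1 was lower in both (Ager, -1.1). Over all genes 29.9% were higher in both and 28.5% lower in both. No club or ciliated gene was higher in both.

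**Figure D4:**
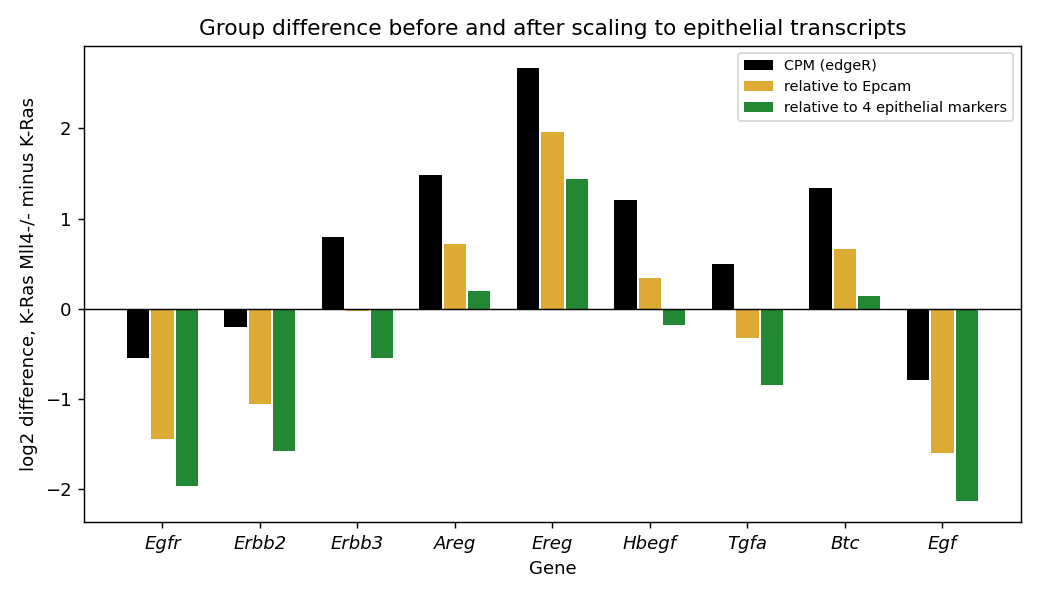
log2 difference between the groups (K-Ras Mll4-/- minus K-Ras) for the 9 tested members in CPM (black, edgeR), relative to Epcam (yellow) and relative to the mean log2 CPM of 4 epithelial markers (green). The bar of Ereg stays positive in all 3 forms, at 2.67, 1.96 and 1.44, while those of Areg and Btc shrink to 0.19 and 0.14 relative to the 4 markers. Erbb3 and Tgfa turn negative in both relative forms, and Hbegf does so relative to the 4 markers (-0.18).

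Other cells can make these ligands too. Amphiregulin is known from basophils, mast cells and innate lymphoid cells, and of 3 mast cell and basophil genes only Mcpt8 was higher in both K-Ras Mll4-/- samples, at 24.2 and 36.8 CPM against 0.589 and 1.38 CPM. Cpa3 (0.952 and 1.18 against 0.785 and 1.27 CPM) and Ms4a2 (1.83 and 1.99 against 0.916 and 3.43 CPM) overlapped. The sum of 4 innate lymphoid and T cell genes was 82.7 and 65.9 CPM against 165.4 and 65.6 CPM, and Ptprc, which encodes CD45, stood at 269 and 171 CPM against 274.5 and 143 CPM. The sum of 5 leukocyte genes, Ptprc among them, was 490.2 and 284 CPM against 592 and 231 CPM. None of the marker genes had 0 reads in every sample. The mesothelial list held 1 tested gene, Msln, at 120.3 and 221 CPM against 13.8 and 17.0 CPM, while its other 2 genes, Upk3b and Wt1, were at most 0.636 CPM in any sample. The part of these cells in the ligand levels was not tested.

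A list of 42 further genes of the pathway was examined by role, and 41 passed the count filter, all but Nrg3, which had 0 reads in every sample. None of the 41 was called (edgeR quasi-likelihood), 8 were higher and 3 lower at an unadjusted p under 0.05 (11.4% and 10.4% over all genes), and DESeq2 called 5 higher and 3 lower (5.23% and 5.18% over all genes). The genes DESeq2 called were Adam9, Eps8, Lrig1, Phlda1 and Epha2 (higher) and Plcg1, Lrig3 and Fos (lower). In CPM, 11 were higher in both K-Ras Mll4-/- samples, 10 were lower in both and 20 overlapped, which is near the shares over all genes, 29.9% and 28.5%. The median log2 fold change of the 41 was 0.02, close to that of all tested genes.

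The remaining EGF-family ligands were low. Nrg1, the main ERBB3 ligand, was at 4.91 and 8.63 CPM in the K-Ras Mll4-/- samples and at 2.58 and 6.92 CPM in the K-Ras samples, which overlapped (log2 fold change 0.51, SE 0.58, and -0.023 without K-Ras replicate 1). Nrg2 was at 0.571 and 0.745 CPM against 1.01 and 1.36 CPM (log2 fold change -0.84, SE 0.43, edgeR adjusted p = 0.317). It had only 15 and 24 reads in the K-Ras Mll4-/- samples and 31 and 49 reads in the K-Ras samples. Of the 6 shedding and trafficking genes, the 4 ADAM proteases were higher in both K-Ras Mll4-/- samples, as were 29.9% of all genes, and Rhbdf1 and Rhbdf2, which help ADAM17 mature, were lower in both, as were 28.5% of all genes. Adam9 was at 270.1 and 365 CPM against 162 and 185 CPM (log2 fold change 0.87, SE 0.21, edgeR adjusted p = 0.164), and Adam10 was at 261 and 326 CPM against 204 and 174 CPM (log2 fold change 0.63, SE 0.19, edgeR adjusted p = 0.185). Adam17, the main protease for several EGFR ligands, was separated by a log2 difference of 0.24, whose SE was 0.14 (edgeR adjusted p = 0.371).

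Among 11 adaptors and proximal effectors, Eps8, an EGFR substrate that organises actin, was at 282 and 474 CPM against 68.0 and 96.5 CPM. The groups differed by 2.20 on the log2 scale (SE 0.34), and the adjusted p was 0.144 in edgeR and 4.14e-08 in DESeq2. Plcg1, the phospholipase recruited to active receptors, was lower at 209 and 215 CPM against 300.1 and 347 CPM (log2 fold change -0.61, SE 0.15, edgeR adjusted p = 0.168). The core adaptors Grb2, Shc1 and Gab1 overlapped between the groups.

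Of the 10 genes for receptor inhibitors and turnover, 1 was higher in both K-Ras Mll4-/- samples, 2 were lower in both and 7 overlapped. Over all genes 29.9% were higher in both and 28.5% lower in both. The 2 lower genes were Lrig3 and Cbl, the latter with a log2 fold change of only -0.085 (SE 0.12). Lrig1, which promotes the breakdown of EGFR family receptors, was at 66.3 and 105 CPM against 34.1 and 48.5 CPM (log2 fold change 1.05, SE 0.30, edgeR adjusted p = 0.185). Lrig3 went the other way, at 10.9 and 10.4 CPM against 17.9 and 18.9 CPM (log2 fold change -0.79, SE 0.17, edgeR adjusted p = 0.154). Errfi1, a feedback inhibitor of the EGFR kinase, ranged from 161 to 592 CPM between the K-Ras samples alone.

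Of the 10 transcripts induced by EGFR and MAPK signalling, 3 were higher in both K-Ras Mll4-/- samples, 4 were lower in both and 3 overlapped, near the shares over all genes (29.9% higher and 28.5% lower). Epha2 was at 294 and 413 CPM against 129.7 and 213 CPM (log2 fold change 1.05, SE 0.32, edgeR adjusted p = 0.192), and Etv4, an ETS factor, was at 19.5 and 24.2 CPM against 8.18 and 14.97 CPM (log2 fold change 0.92, SE 0.34, edgeR adjusted p = 0.229). Phlda1, named after its values were seen, was at 39.15 and 44.2 CPM against 17.6 and 26.8 CPM (log2 fold change 0.91, SE 0.25, edgeR adjusted p = 0.177). The immediate early gene Fos, also chosen here after its values were seen, was at 275 and 211 CPM against 353 and 537 CPM (log2 fold change -0.87, SE 0.28, edgeR adjusted p = 0.199). Also lower in both, and likewise named after their values were seen, were Ier3 (-0.63, SE 0.30), the ETS factor Etv5 (-0.28, SE 0.14) and Spry4 (-0.25, SE 0.13). The feedback gene Dusp6 overlapped, at 404 and 422 CPM against 337 and 424 CPM.

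**Figure D5:**
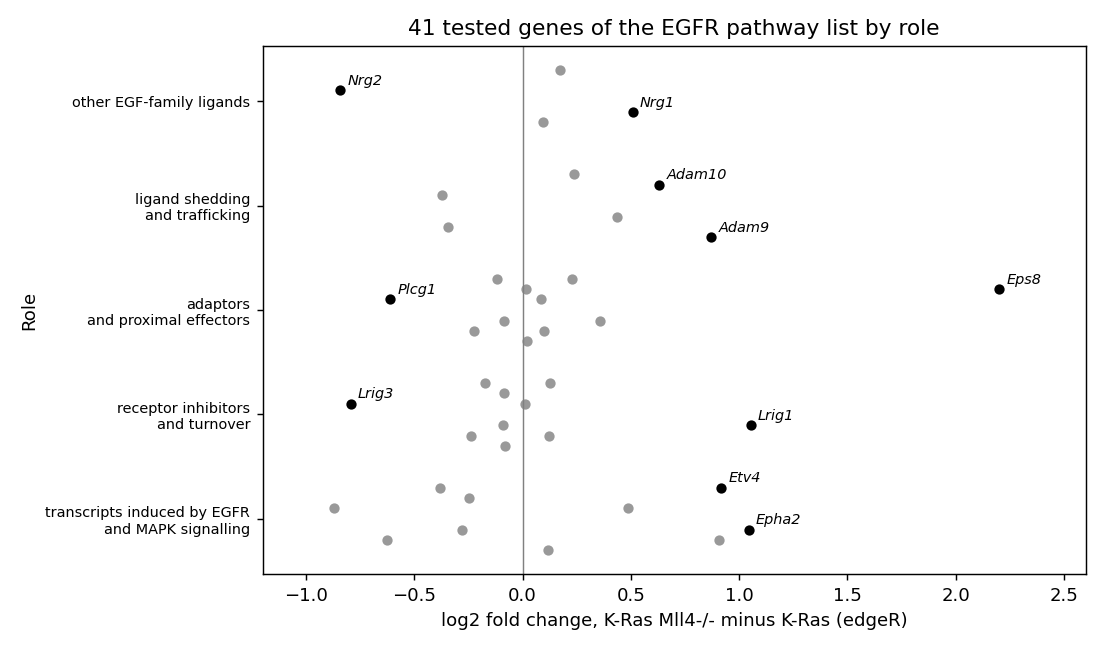
log2 fold change (K-Ras Mll4-/- minus K-Ras) of the 41 tested pathway genes, 1 point per gene, in rows by role with vertical offsets only for legibility. Black points are the named genes with the largest differences in each role. Eps8 lies farthest right at 2.20, and the other points lie between -0.87 and 1.05.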

How the data were processed

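The deposited values were raw read counts per gene symbol, 1 file per sample. CASAVA 1.4, STAR and HTSeq and the build mm9 are named in the submitters' processing notes; gene models, strand setting and parameters are not given in the sources used here. Closing lines for reads not assigned to a single gene, for whatever reason, made up 60.1% to 65.6% of each file's total and were left out. In edgeR 4.0.16 (R 4.3.3), genes were kept with filterByExpr, scaled by TMM, and tested with the robust quasi-likelihood test over all 16001 genes with Benjamini-Hochberg adjustment, and calls were made at an adjusted p under 0.05. Groups came from sample titles. SE is the log2 fold change divided by the root of F. Alternatives used limma 3.58.1, DESeq2 1.42.0 and mgcv 1.9.3. Lengths and GC content came from GENCODE M21 (GRCm38), matched for 15869 tested genes. Members and lists were chosen with earlier results of these data known. Named pathway genes were the 2 with the largest absolute log2 fold change per role and any called gene. Others were named after their values were seen. The floor of 3 reads covers counting error only.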

Additional observations from a re-analysis of the deposited data

How the results depend on the processing

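With 2 samples a group, the number of calls depended on the test. Against 0 members, 0 pathway genes and 6 genes in all, DESeq2 called 3, 8 and 1601, the edgeR likelihood ratio test 3, 5 and 1503, and limma-voom 0, 0 and 0, although 4 members and 3228 genes had an unadjusted limma p under 0.05. The replicate numbers pair the samples by name only. Same-numbered deviations from the group means correlated at 0.21 across 16001 genes. With the replicate block, 2 members (Ereg and Hbegf), 2 pathway genes and 217 genes in all were called. With the replicate block and GC and length offsets together the counts were 1 (Hbegf), 1 and 118. Testing every gene with a read gave 44 genes in all and no member. Leaving out each sample gave 0 to 528 genes in all, the highest without K-Ras replicate 1, and 0 members each time. In these fits the lone sample is assumed to vary like the other group, and 2 to 6 members and 965 to 4191 genes had an unadjusted edgeR p under 0.05. Across those fits Nrg1 ranged from -0.023 to 1.38 and Erbb2 from -0.44 to 0.081 on the log2 scale, the sign changes seen among the members, Kmt2d and the pathway genes with the largest differences. Relative to 4 epithelial markers the sign reversed for Erbb3 (-0.54), Hbegf (-0.18) and Tgfa (-0.84), and relative to Epcam for Erbb3 (-0.020) and Tgfa (-0.32). The cause was not tested. Under the other scalings and filters those genes kept their direction, except that Egf and Nrg2 have no value at a minimum count of 50. Depth limits Erbb4, Egf, Epgn and Nrg2.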
